A study of Mus musculus with 9 samples.

Results

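The genes described here are the cytosolic, mitochondrial and other heat shock proteins and their cochaperones as measured by RNA-sequencing of murine splenic B cells. Members were chosen by name, with earlier results of these data known. They are all genes of the study's gene table whose symbol starts with Hspa, Hspd, Hspe, Hsph, Hsp90 or Dnaj, starts with Hspb followed by a digit, or is one of Bag1 to Bag6, leaving out Hspa5 and Hsp90b1. This gave 77 of 22174 genes. Of these, 63 held enough reads to be tested among 11165 tested genes, and 0 of the 63 passed the filter through the libraries of 1 group alone. Among the 14 members that were not tested, 7 had no read in any library (among them Dnajb8, Dnajc22, Dnajc5b, Dnajc5g, Hspb7 and Hspb8), 4 had at most 3 reads in every library (Dnajb3, Dnajc6, Hspb2 and Hspb9), and Hspb3, Dnajb7 and Hspa12b had more.

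Each library came from the splenic B cells of 1 mouse, enriched by negative bead selection for B cells, and all 9 mice carried the strain label C57/BL6NTac. The 3 Eµ-MTCP1 mice (Z2551, Z2606 and Z2641, founder line Z36) express human MTCP1 and the 3 Eµ-TCL1 mice (B4376, B4437 and C1594) express human TCL1, in both models from an immunoglobulin VH promoter and the IgH-Eµ enhancer, so that the transgene is active in B cells. Transgenic mice were sampled once leukemia was advanced, and the 3 wildtype mice (Z2754, Z2755 and Z2785) were age-matched littermates without a transgene; ages were not given in the labels. Since healthy B cells were the only control, the effect of a transgene and that of the leukemia that comes with it cannot be told apart.

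Heat shock proteins are molecular chaperones that hold, refold or pass on unfolded proteins. HSP70 proteins bind exposed hydrophobic stretches and release them with ATP, J-domain proteins (Dnaja, Dnajb, Dnajc) deliver substrates and start ATP hydrolysis, and nucleotide exchange factors such as the HSP110 protein Hsph1 and the Bag proteins reset the cycle, while HSP90 finishes the folding of kinases and receptors. Some members are made at all times, whereas others are induced when heat shock factor 1 binds repeats of the bases nGAAn in their promoters. HSP90 has been studied as a drug target in chronic lymphocytic leukemia, the disease these mice model, because kinases of B cell signalling are among its clients.

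Libraries held between 6447539 and 8033309 estimated reads on the transcripts used here. The human transgenes separated the groups as labelled, with MTCP1 at 11.12 to 12.3 in Eµ-MTCP1 mice and at most 6.19 in the others, and TCL1A at 14.93 to 15.6 in Eµ-TCL1 mice and at most 6.96 in the others, on the authors' log2-like scale. Levels are given in CPM (reads scaled to a fixed library total, with the TMM factors of edgeR). The B cell markers Cd79a, a part of the B cell receptor, and Ms4a1, the surface protein CD20, ranged over all mice from 2430 to 4080 CPM and from 367 to 782 CPM. Cd5, a surface marker of chronic lymphocytic leukemia, stood at 23.9 to 83.4 CPM in leukemic mice and at 0.743 to 4.83 CPM in wildtype mice. The 6 myeloid markers summed to 433 to 1020 CPM in Eµ-MTCP1, 123 to 1300 CPM in Eµ-TCL1 and 763 to 1620 CPM in wildtype mice, and the neutrophil genes S100a8 and S100a9 were highest in wildtype mouse Z2755 and Eµ-MTCP1 mouse Z2641. The 5 T cell markers summed to 8.4 to 39 CPM in Eµ-TCL1, 2.46 to 23.1 CPM in Eµ-MTCP1 and 2.28 to 4.68 CPM in wildtype mice, and the 3 plasma cell markers to 75.4 to 1800 CPM, 282 to 2770 CPM and 704 to 1200 CPM. In Z2641 and C1594 the T cell sum was mostly Cd3g, at 22.5 and 7.42 CPM. Cd3d stood at 0.661 and 0.28 CPM there, and Cd3e at 0.0 and 0.28 CPM. The T cell sum was highest in Eµ-TCL1 mouse B4376 and that of plasma cells in Eµ-MTCP1 mouse Z2606, and their part in the results was not tested. Column names of the gene counts place Z2755 on a sequencing lane of its own and the remaining 8 libraries together. In such bulk samples, fewer cells of a type and less RNA per cell cannot be told apart.

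Promoters of the inducible members are shown because the repeat that heat shock factor 1 binds can be searched in them. A promoter window here is the 250 bases before and 50 after a transcription start given by RefSeq (GRCm38.p6), and 61 of the 77 members had such a window. The letters searched were GAANNTTC and TTCNNGAA, 2 neighbouring units of the heat shock element facing each other, which read the same on both strands and overlap where 3 units follow each other. The 150 bases before the start are given 5′ to 3′ for the inducible HSP70 pair, the small heat shock protein Hspb1 and the HSP110 gene Hsph1, with matches in capitals. The windows lie at chr17:34972157-34972306 (minus strand) for Hspa1a, chr17:34959239-34959388 (minus strand) for Hspa1b, chr5:135887769-135887918 (plus strand) for Hspb1 and chr5:149636337-149636486 (minus strand) for Hsph1.
Hspa1a: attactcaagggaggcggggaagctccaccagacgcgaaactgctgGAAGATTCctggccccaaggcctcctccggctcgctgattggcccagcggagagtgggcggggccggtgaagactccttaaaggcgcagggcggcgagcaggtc
Hspa1b: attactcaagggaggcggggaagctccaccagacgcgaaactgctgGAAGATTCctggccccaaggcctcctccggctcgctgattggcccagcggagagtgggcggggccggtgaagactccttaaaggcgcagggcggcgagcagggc
Hspb1: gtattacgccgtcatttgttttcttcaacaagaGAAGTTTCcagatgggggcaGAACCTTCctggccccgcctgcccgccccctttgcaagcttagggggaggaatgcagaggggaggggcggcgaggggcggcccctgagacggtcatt
Hsph1: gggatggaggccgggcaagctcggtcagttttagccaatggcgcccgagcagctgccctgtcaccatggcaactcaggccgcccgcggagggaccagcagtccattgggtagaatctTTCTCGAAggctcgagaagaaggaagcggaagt
The stretches of Hspa1a and Hspa1b were identical at 149 of 150 bases, with the match at the same distance from both starts, 104 to 97 bases upstream. Hspb1 held 2 matches, and Hsph1 held 1 here and a further overlapping pair within the first 50 transcribed bases. In all, 7 of the 9 inducible genes with a window had a match in at least 1 window (Bag3, Dnaja1, Dnajb4, Hspa1a, Hspa1b, Hspb1 and Hsph1). Over all genes with a window, 4587 of 27025 had a match. The only match of Bag3 lay within the first 50 transcribed bases, and Dnaja1 and Dnajb4 also had windows without a match. Counted by window, 57.1% of their 14 windows held a match, against 15.1% of all 32851 windows. Windows of Dnajb1 and Hspa4l held none of these letters. Of the 10 constitutive genes with a window, only Dnajb6 had a match (14.3% of their windows). Hspa8 and Hsp90ab1 of the constitutive list and Hsp90aa1 of the inducible list had no window and were not searched. Counting only 3 units that follow each other, both lists had a match in 14.3% of windows, from Hsph1 and from Dnajb6. Of all windows 0.603% had such a match. A match describes these letters and does not show that a factor was bound in these cells.

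Per transcript length, Hspa8 and the HSP90 genes were the most abundant members by the median over all mice. Over the 9 mice, the HSP70 protein Hspa8 had a median of 857 TPM (transcripts scaled for length and library total), Hsp90ab1 of 737 TPM and Hsp90aa1 of 531 TPM, followed by the mitochondrial cochaperonin Hspe1 at 163 TPM and the HSP70 and HSP90 adaptor Dnajc7 at 128 TPM. In Eµ-TCL1 mice alone Hspa1b, Dnajb1 and Hspa1a averaged 433, 278 and 250 TPM, above Hspe1 at 168 and Dnajc7 at 131 TPM. Over the mice Hspa1b ran from 1.54 to 785 TPM, Hspa1a from 1.69 to 411 TPM and Hspb1 from 1.63 to 486 TPM, while the inducible Hsp90aa1 ran from 272 to 728 TPM and the constitutive Hsp90ab1 from 556 to 1140 TPM. The 77 members together took 1.398% to 1.72% of the reads in Eµ-TCL1 mice, 0.899% to 1.085% in wildtype mice and 0.882% to 0.978% in Eµ-MTCP1 mice. Within these member reads, Hspa1a and Hspa1b made up 3.83% to 12.9% in Eµ-TCL1 mice and at most 2.77% in any other mouse.

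Hspa1a and Hspa1b encode the stress-inducible HSP70 proteins and lie side by side on chromosome 17 (GRCm38), both without introns. Hspa1b (chr17:34956436-34959238, minus strand) stood at 17.4, 22.9 and 3.1 CPM in Eµ-MTCP1 mice Z2551, Z2606 and Z2641, from 106, 161 and 19 reads. In Eµ-TCL1 mice B4376, B4437 and C1594 it stood at 1450, 291 and 684 CPM, from 10449, 2369 and 4886 reads. Wildtype mice Z2754, Z2755 and Z2785 had 9.8, 139 and 18.4 CPM, from 79, 1279 and 122 reads, and values of other members follow the same order of mice. All Eµ-TCL1 mice were above all others, and the wildtype mouse on the other lane was the highest of the remaining 6. Hspa1a (chr17:34969190-34972156, minus strand) followed the same order, with 783, 238 and 420 CPM in Eµ-TCL1, 25.9, 43.0 and 3.5 CPM in Eµ-MTCP1 and 15.9, 116 and 39.1 CPM in wildtype mice.

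Against wildtype, the log2 fold change of Hspa1b in Eµ-TCL1 was 3.85 ± 1.05 (SE; edgeR, adjusted p = 0.0459), and that of Hspa1a was 3.07 ± 0.88 (edgeR, adjusted p = 0.0545), just outside the threshold of 0.05. The Hspa1b call rested on single libraries. It was lost without Eµ-TCL1 mouse B4376 or C1594 (3.12 and 3.96), without wildtype mouse Z2754 or Z2785 (3.35 and 3.44), without Eµ-MTCP1 mouse Z2551 or Z2606 (3.85 and 3.83), and with library size alone (3.63), and without Z2755 the log2 fold change was 5.82. The Hspa1a difference passed in 8 of 19 alternatives (adjusted p from 0.0113 with DESeq2 and length offsets to 0.162 with edgeR without Z2754). Its log2 fold change was 4.11 without Z2755 and 2.52 without B4376 (edgeR, adjusted p = 0.0432 and 0.134). In Eµ-MTCP1 against wildtype the fold changes of -1.94 ± 1.0 for Hspa1b and -1.24 ± 0.84 for Hspa1a did not pass (edgeR, adjusted p = 0.254 and 0.387), and without mouse Z2755 they were 0.01 and -0.21. Between the leukemias, the log2 fold change of Eµ-TCL1 over Eµ-MTCP1 was 5.79 ± 1.16 for Hspa1b and 4.31 ± 0.93 for Hspa1a (edgeR, adjusted p = 0.225 and 0.305). The study had singled out these genes in this contrast, so these values are a description. With DESeq2 on the same counts both passed in this contrast.

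Because the pair is nearly identical, it was also counted as a sum. Hspa1a has 1923 coding bases before the stop codon and Hspa1b 1926, and outside a gap of 3 bases they differ at 8 positions (99.6% identity). Of all stretches of 100 bases along the coding sequence, 67.9% are identical in both, and a read inside such a stretch cannot be told apart between the genes. A stretch of 60 coding bases with 2 differences is printed, with the differing bases in capitals, from chr17:34970510-34970569 for Hspa1a and chr17:34957592-34957651 for Hspa1b (minus strand).
Hspa1a: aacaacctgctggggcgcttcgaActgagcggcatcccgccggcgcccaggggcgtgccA
Hspa1b: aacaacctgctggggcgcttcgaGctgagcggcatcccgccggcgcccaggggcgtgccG
Summed into 1 feature, the pair averaged 38.6 ± 29.9 CPM (SD, n = 3) in Eµ-MTCP1, 1290 ± 865 CPM in Eµ-TCL1 and 113 ± 124 CPM in wildtype mice. The log2 fold change of the sum in Eµ-TCL1 against wildtype was 3.51 ± 0.98 (edgeR, adjusted p = 0.0504). Hspa1b made up 55.9% to 65.6% of the summed TPM in Eµ-TCL1 mice, 35.4% to 47.6% in Eµ-MTCP1 mice and 32.6% to 55.0% in wildtype mice. A further gene, Gm20481, is annotated on the opposite strand over most of Hspa1a, at 21.5 to 80.8 CPM in Eµ-TCL1 mice and at most 11 CPM elsewhere. Whether the counting used strand is not given in the sources used here, so reads of Hspa1a and Gm20481 cannot be told apart.

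Bag3 (chr7:128523616-128546981, plus strand), the exchange factor that links HSP70 to autophagy of aggregated proteins, stood at 24.6, 19.2 and 28.0 CPM in Eµ-TCL1, 5.4, 7.2 and 11.1 CPM in Eµ-MTCP1 and 2.6, 5.6 and 3.3 CPM in wildtype mice. The Eµ-TCL1 mice did not overlap with either of the other groups. Bag3 rose by 2.62 ± 0.40 on the log2 scale in Eµ-TCL1 against wildtype (edgeR, adjusted p = 0.00274), and this call held in all 19 alternative analyses and leave-one-out fits run. The difference between the leukemias was 1.60 ± 0.38 (edgeR, adjusted p = 0.365), and that of Eµ-MTCP1 to wildtype 1.02 ± 0.39 (edgeR, adjusted p = 0.137).

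Hsph1 (chr5:149614287-149636376, minus strand), the HSP110 partner of HSP70, had levels of 110, 62.5 and 66.4 CPM in Eµ-TCL1, 24.3, 25.1 and 16.7 CPM in Eµ-MTCP1 and 39.8, 60.4 and 33.2 CPM in wildtype mice. All Eµ-MTCP1 mice lay below all wildtype mice and all Eµ-TCL1 mice above them. The log2 fold change was -1.01 ± 0.30 in Eµ-MTCP1 and 0.84 ± 0.30 in Eµ-TCL1 against wildtype, and 1.85 ± 0.31 between the leukemias, and none of these passed (edgeR, adjusted p = 0.0636, 0.11 and 0.113). For Dnajb1, the main J-domain partner of inducible HSP70, values were 763, 210 and 373 CPM in Eµ-TCL1, 102, 295 and 85.4 CPM in Eµ-MTCP1 and 145, 220 and 139 CPM in wildtype mice. Its groups overlapped, and the log2 fold change in Eµ-TCL1 of 1.42 ± 0.54 against wildtype did not pass (edgeR, adjusted p = 0.132), and without mouse B4376 it was 0.79 (edgeR, adjusted p = 0.392).

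Hspb1 (chr5:135887919-135889563, plus strand), the small heat shock protein HSP27 that holds unfolded proteins without ATP, differed widely within both leukemias. It stood at 29.5, 13.3 and 331 CPM in Eµ-TCL1, 1.64, 21.7 and 1.16 CPM in Eµ-MTCP1 and 2.6, 2.17 and 4.38 CPM in wildtype mice, and the 331 CPM of mouse C1594 came from 2362 reads. The Eµ-TCL1 mice were above all wildtype mice, while Eµ-MTCP1 mouse Z2606 lay within the Eµ-TCL1 range and the other two Eµ-MTCP1 mice lay below every wildtype mouse. The log2 fold change in Eµ-TCL1 against wildtype was 5.36 ± 1.40 (edgeR, adjusted p = 0.0388). Without mouse C1594 it was 2.81 (edgeR, adjusted p = 0.163), and the call was also lost without any 1 of the wildtype mice (5.12 to 5.69) and on the standard mouse reference (5.19; edgeR, adjusted p = 0.0518). In Eµ-MTCP1 against wildtype it was 1.46 ± 1.32, and -1.13 without Z2606 (edgeR, adjusted p = 0.524 and 0.672). The other tested small heat shock proteins, Hspb6 and Hspb11, had a log2 fold change of 1.77 and 0.23 in both leukemias and did not pass. Hspb6 was at most 2.33 CPM in any mouse.

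Hsp90aa1, the inducible HSP90 gene, had 886, 1280 and 1240 CPM in Eµ-TCL1, 684, 736 and 518 CPM in Eµ-MTCP1 and 1030, 688 and 841 CPM in wildtype mice. Its log2 fold changes against wildtype were -0.40 ± 0.24 in Eµ-MTCP1 and 0.41 ± 0.24 in Eµ-TCL1, and the leukemias did not overlap, at 0.81 ± 0.24 between them (edgeR, adjusted p = 0.332, 0.324 and 0.586). Dnaja1, a J-domain partner of Hspa8, averaged 136 ± 51.1, 213 ± 55.7 and 207 ± 60.1 CPM (SD, n = 3) in Eµ-MTCP1, Eµ-TCL1 and wildtype mice. Dnajb4, a close relative of Dnajb1, averaged 9.83 ± 6.62, 19.9 ± 2.08 and 17 ± 7.22 CPM, and the HSP110 gene Hspa4l 7.83 ± 3.32, 11.7 ± 0.485 and 11.5 ± 3.50 CPM. In these last 3 genes the Eµ-TCL1 and wildtype mice were within their spread, and the log2 fold changes of Eµ-TCL1 against wildtype were 0.04, 0.22 and 0.02.

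**Figure D1:**
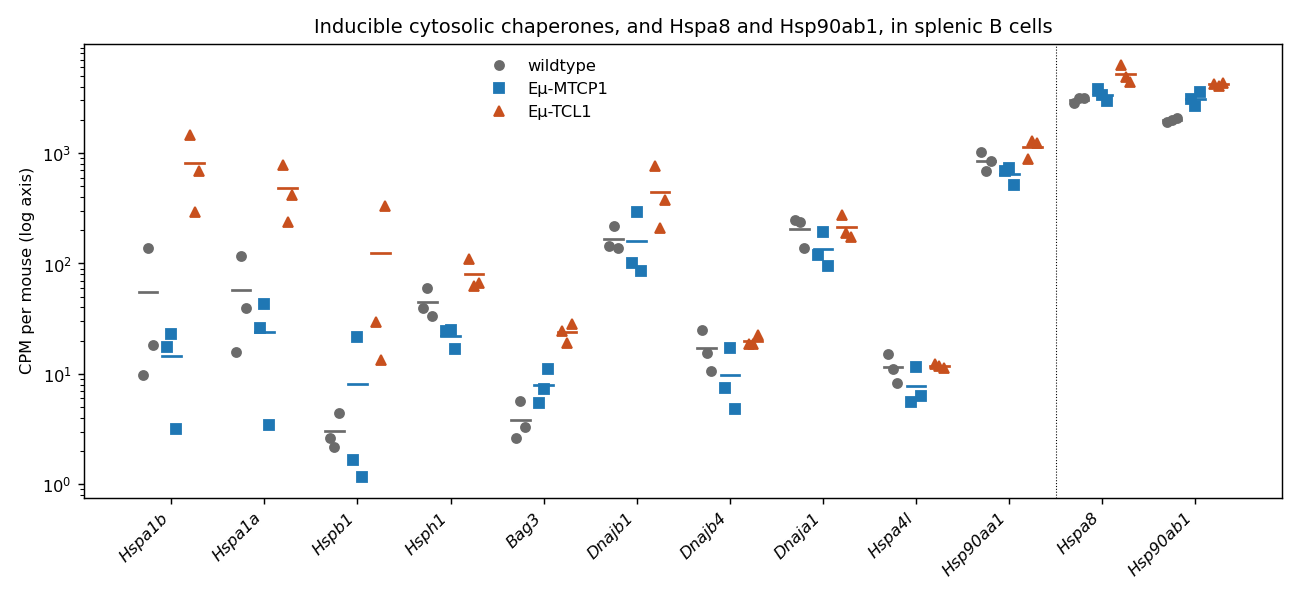
CPM on a log axis of the 10 inducible cytosolic members, and of Hspa8 and Hsp90ab1 to the right of the dotted line, with 1 point per mouse and a bar at the mean of each group (n = 3). The Eµ-TCL1 points of Hspa1b, Hspa1a and Bag3 lie above all other points of the gene, and those of Hsph1 above all others from 62.5 CPM upward.

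In Eµ-TCL1 against wildtype, 6 of 63 tested members passed in edgeR (9.52%), near the 9.2% of all 11165 genes that did. These were Bag3, Dnajb13, Hsp90ab1, Hspa1b and Hspb1, which rose (5.07% of all genes rose), and Dnajc9, which fell (4.13% of all genes fell). In Eµ-MTCP1 against wildtype 2 members passed, or 3.17%, where 9.48% of all genes did. Dnajb13 and Hspa12a rose there (5.49% of all genes rose), and 0 members fell (3.99% of all genes fell). At an unadjusted p under 0.05, 10 members differed in that comparison (15.9%, where 25% of all genes did) and 16 in Eµ-TCL1 against wildtype (25.4%, where 25.1% of all genes did).

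Between Eµ-TCL1 and Eµ-MTCP1, edgeR called 0 members, and 5 genes or 0.0448% of all genes (0.0269% higher and 0.0179% lower in Eµ-TCL1). At an unadjusted p under 0.05, 11 members differed between the leukemias (17.5%, where 6.42% of all genes did): Bag3, Dnaja4, Dnajb1, Hsp90aa1, Hsp90ab1, Hspa1a, Hspa1b, Hspa8, Hspb1 and Hsph1, higher in Eµ-TCL1, and Dnajc9, lower. The DESeq2 Wald test called 4 of them, namely Bag3, Hspa1a, Hspa1b and Hsph1, all higher in Eµ-TCL1, where it called 0.654% of all genes and 0.358% as higher. Groups did not overlap for 10 members higher in Eµ-TCL1 (15.9%, where 5.42% of all genes had this) and for 4 members lower (6.35%, where 5.62% of all genes had this). Hspa1a and Hspa1b are among the 11 members, the 4 called by DESeq2 and the 10 without overlap. The study had singled them out in this contrast from the same libraries, so these counts and shares are a description. Many reads of this nearly identical pair cannot be told apart, so Hspa1a and Hspa1b are not independent members. Against wildtype, 15 members were higher without overlap in Eµ-TCL1 (23.8%, where 16.6% of all genes were) and 7 lower (11.1%, where 16.1% were). For Eµ-MTCP1 these were 6 higher (9.52%, where 14.7% were) and 8 lower (12.7%, where 15.3% were).

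The inducible and the constitutive cytosolic members are described side by side, without a test between the lists. Both lists were drawn up with earlier results of these data known. Of the 10 inducible genes, 3 rose in Eµ-TCL1 against wildtype by edgeR (Bag3, Hspa1b and Hspb1), where 5.07% of all genes rose, and 5 by DESeq2, which added Hspa1a and Dnajb1 and by which 8.28% of all genes rose. Their median log2 fold change was 1.13, beside -0.01 over all tested genes, and for 5 of the 10 all Eµ-TCL1 mice were above all wildtype mice, as in 16.6% of all genes. In Eµ-MTCP1 against wildtype 0 of the 10 passed by edgeR, 2 had an unadjusted p under 0.05 (Hsph1, lower, and Bag3, higher), where 25% of all genes did, DESeq2 called Hsph1 as lower, where it called 14.7% of all genes, and the median was -0.58, beside -0.02 over all genes. That median ran from -1.06 without Eµ-MTCP1 mouse Z2606 to -0.36 without wildtype mouse Z2754. Between the leukemias all 10 had a positive log2 fold change in Eµ-TCL1 against Eµ-MTCP1, from 0.57 to 5.79. Their median was 1.54, beside -0.0 over all genes. The list holds Hspa1a and Hspa1b, which the study had singled out in this contrast, so these values are a description. The 3 comparisons share libraries, so their values are not independent of each other. Among the 15 constitutive genes, Hsp90ab1 rose and Dnajc9 fell by edgeR in Eµ-TCL1 against wildtype, where 9.2% of all genes passed. DESeq2, which called 15.2% of all genes there, also called Hspa8 and Dnajc5 as higher and Dnajb6 as lower. In Eµ-MTCP1 against wildtype 0 of the 15 passed by edgeR (9.48% of all genes did), and DESeq2 called Hsp90ab1 as higher and Dnajb6 as lower. Dnajb6, a J-domain protein that keeps proteins from aggregating, lay below all wildtype mice in both leukemias, with log2 fold changes of -0.67 in Eµ-MTCP1 and -0.70 in Eµ-TCL1 (edgeR, adjusted p = 0.0769 and 0.0636). The constitutive medians were -0.12 in Eµ-MTCP1 and -0.07 in Eµ-TCL1 against wildtype, and 0.11 between the leukemias.

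**Figure D2:**
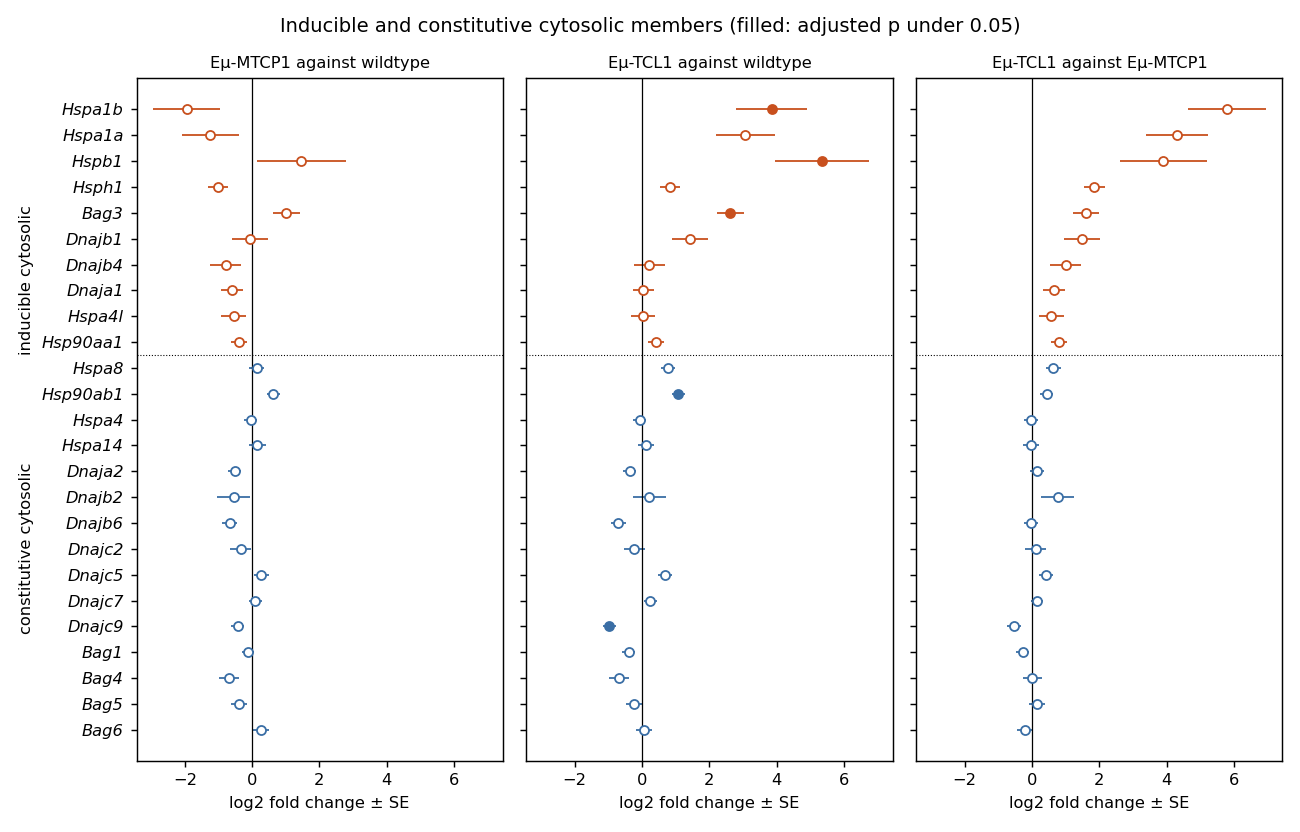
Log2 fold changes with their SE for the 10 inducible (orange) and 15 constitutive (blue) cytosolic members in the 3 comparisons, with filled points for an adjusted p under 0.05. In Eµ-TCL1 against Eµ-MTCP1 all inducible points lie to the right of 0, from 0.57 to 5.79, while the constitutive points run from -0.53 to 0.77.

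Eµ-MTCP1 mouse Z2641 was the lowest of all 9 mice in 8 of the 10 inducible genes, and mouse Z2606 was the highest Eµ-MTCP1 mouse in 9 of them. Among Eµ-TCL1 mice, B4376 was the highest in 6 genes and B4437 the lowest in 7. Wildtype mice Z2754, Z2755 and Z2785 were the highest of their group in 4, 5 and 1 genes and the lowest in 3, 2 and 5. Without B4376, the median of the inducible list in Eµ-TCL1 against wildtype was 0.68. Of the 15 constitutive genes, mouse Z2641 was the lowest of its group in 4 and the highest in 8, and mouse B4376 was the highest of its group in 2 and C1594 in 9.

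Hsp90ab1 (chr17:45567775-45573271, minus strand), the constitutive HSP90 gene, stood at 3080, 2650 and 3560 CPM in Eµ-MTCP1 mice, at 4210, 4050 and 4360 CPM in Eµ-TCL1 mice and at 1900, 1990 and 2090 CPM in wildtype mice, so that the 3 groups did not overlap. Hsp90ab1 rose by 1.08 ± 0.20 on the log2 scale in Eµ-TCL1 against wildtype (edgeR, adjusted p = 0.00799), in all 19 alternatives. In Eµ-MTCP1 the difference of 0.63 ± 0.20 did not pass (edgeR, adjusted p = 0.0761), although DESeq2 called it. Hspa8, the constitutive HSP70, had 6340, 4940 and 4380 CPM in Eµ-TCL1, 3790, 3360 and 2950 CPM in Eµ-MTCP1 and 2860, 3190 and 3130 CPM in wildtype mice. The Eµ-TCL1 mice lay above the other 6, and the log2 fold changes of 0.77 ± 0.22 against wildtype and 0.63 ± 0.22 against Eµ-MTCP1 did not pass (edgeR, adjusted p = 0.0546 and 0.678).

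Ratios between paralogs, in TPM and without a test, put these levels side by side. Hspa1a plus Hspa1b reached 83.4%, 25.6% and 54.1% of Hspa8 in Eµ-TCL1 mice, 2.35%, 4.06% and 0.502% in Eµ-MTCP1 mice, and 2.13%, 15% and 3.63% in wildtype mice. All Eµ-TCL1 mice were above the highest other mouse, the wildtype mouse Z2755. Hsp90aa1 stood at 55.4%, 66.3% and 36.9% of Hsp90ab1 in Eµ-MTCP1 mice, at 51.0%, 69.7% and 62.5% in Eµ-TCL1 mice, and at 98.9%, 64.9% and 94.8% in wildtype mice. The wildtype mouse Z2755 overlapped with both leukemias in this ratio, but lay above every leukemic mouse in TPM and estimated counts on the standard reference and in the deposited gene counts (67.9%, 32.6% and 31.5% against at most 65.5%, 29.2% and 27.8%). Size of the ratios depended on the counting: in the deposited gene counts, not divided by length, the first ratio averaged 20.7% and not 54.4% in Eµ-TCL1 mice, and the second 39.5% and not 86.2% in wildtype mice, with the groups in the same order.

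**Figure D3:**
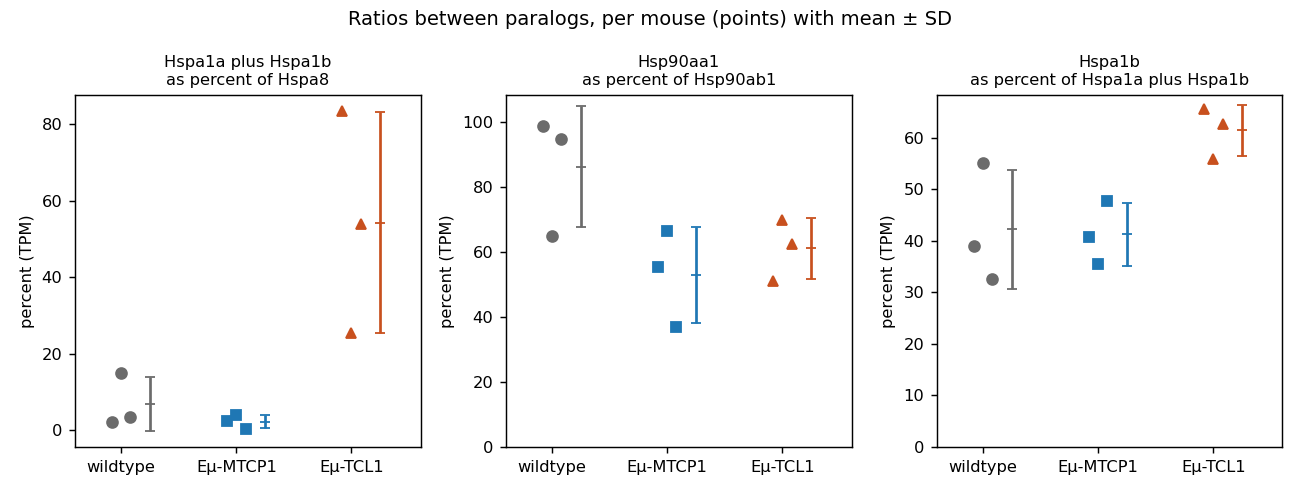
Ratios of TPM in percent for each mouse (points), with the mean and SD of each group (n = 3) beside them. Hspa1a plus Hspa1b against Hspa8 is 25.6% or more in the Eµ-TCL1 mice and at most 15% elsewhere, and Hspa1b against the sum of the pair is 55.9% or more in Eµ-TCL1 mice and at most 55.0% elsewhere.

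Dnajc9 (chr14:20384638-20388910, minus strand), a histone chaperone that recruits HSP70, was the only member that fell by edgeR. It had 37.5, 50.3 and 37.5 CPM in Eµ-TCL1, 53.3, 55.4 and 72.8 CPM in Eµ-MTCP1 and 86.7, 81.4 and 76.7 CPM in wildtype mice, with no overlap among the 3 groups. Dnajc9 fell by 0.97 ± 0.20 on the log2 scale in Eµ-TCL1 against wildtype (edgeR, adjusted p = 0.0127), and the change in Eµ-MTCP1 was -0.43 ± 0.20 (edgeR, adjusted p = 0.202). Without Eµ-TCL1 mouse C1594 or wildtype mouse Z2754 the adjusted p of Dnajc9 in edgeR was 0.0589 and 0.0523. Dnajb5, a cytosolic J-domain protein, averaged 4.91 ± 1.86, 4.10 ± 1.95 and 10.2 ± 2.23 CPM (SD, n = 3) in Eµ-MTCP1, Eµ-TCL1 and wildtype mice, and both leukemias lay below all wildtype mice. Its log2 fold changes of -1.05 and -1.31 did not pass (edgeR, adjusted p = 0.192 and 0.111).

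Hspa12a (chr19:58795750-58943654, minus strand), a distant relative of HSP70 with an atypical ATPase domain, was called by edgeR on the estimated counts in Eµ-MTCP1 but not in Eµ-TCL1 against wildtype. Its values were 8.0, 16.1 and 5.3 CPM in Eµ-TCL1, 11, 12.2 and 27.6 CPM in Eµ-MTCP1 and 1.1, 4.2 and 3.2 CPM in wildtype mice. Both leukemias lay above wildtype, by 2.56 ± 0.61 in Eµ-MTCP1 (edgeR, adjusted p = 0.0254) and by 1.78 ± 0.60 in Eµ-TCL1 (edgeR, adjusted p = 0.0926). They overlapped with each other, and Eµ-TCL1 against Eµ-MTCP1 was at -0.78 (edgeR, adjusted p = 0.859). The call was lost without Eµ-MTCP1 mouse Z2641, wildtype mouse Z2754 or wildtype mouse Z2785. The start of Hspa12a overlaps that of Eno4 on the opposite strand. The 2 DESeq2 fits and the deposited gene counts also called Hspa12a in Eµ-TCL1 against wildtype.

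Dnajb13, a J-domain protein of the ciliary axoneme, stood at 13.3, 14.7 and 13.9 CPM in Eµ-TCL1, 21.5, 24.3 and 12.7 CPM in Eµ-MTCP1 and 3.0, 3.5 and 4.5 CPM in wildtype mice. Its log2 fold changes of 2.41 ± 0.33 and 1.93 ± 0.33 passed in both leukemias against wildtype (edgeR, adjusted p = 0.00164 and 0.0051). The 3′ end of Dnajb13 (chr7:100501716-100514960, minus strand) overlaps Ucp2 on the plus strand, and the part of Ucp2 reads in the Dnajb13 values was not tested. Ucp2, a mitochondrial carrier, was itself at 1120 to 1740 CPM in the leukemias and 605 to 859 CPM in wildtype mice. On the standard mouse reference the fold changes of Dnajb13 were 1 and 0.72 (edgeR, adjusted p = 0.0446 and 0.133). In the deposited gene counts the fold changes of Dnajb13 were 0.51 and 0.47 and did not pass (edgeR, adjusted p = 0.277 and 0.331).

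None of the 8 mitochondrial members, which include the HSP60 chaperonin Hspd1, its lid Hspe1 and the mitochondrial HSP70 Hspa9, passed by edgeR or DESeq2 in any comparison, where 9.48% and 9.2% of all genes passed by edgeR and 14.7% and 15.2% by DESeq2 in Eµ-MTCP1 and Eµ-TCL1 against wildtype. Their log2 fold changes ran from -0.30 to 0.43 in Eµ-MTCP1 and from -0.27 to 0.35 in Eµ-TCL1 against wildtype. Dnajc19, a cochaperone of the inner membrane import motor, lay above all wildtype mice in both leukemias, at 0.43 in Eµ-MTCP1 and 0.35 in Eµ-TCL1, and had an unadjusted p of 0.0392 in Eµ-MTCP1. Dnajc15 lay above wildtype in Eµ-TCL1, at 0.35, Dnajc30 lay below all wildtype mice in both, at -0.16 and -0.27, and Hspa9 did so in Eµ-MTCP1, at -0.30. Of all genes, 14.7% lay above and 15.3% below wildtype without overlap in Eµ-MTCP1, and 16.6% and 16.1% in Eµ-TCL1. Of the 8 members of the endoplasmic reticulum, 0 passed by edgeR or DESeq2, and 0 had an unadjusted p under 0.05, which 25% and 25.1% of all genes had in Eµ-MTCP1 and Eµ-TCL1 against wildtype. Dnajb9, induced by the unfolded protein response, had 18.8, 23.6 and 46.1 CPM in Eµ-TCL1, 21, 54 and 9.41 CPM in Eµ-MTCP1 and 100, 41.9 and 43.1 CPM in wildtype mice. Hspa13, an HSP70 of the secretory pathway, ran from 4.2 to 18.9 CPM over all mice, with overlap between all groups. Dnajc25, another J-domain protein of internal membranes, had 6.2, 8.2 and 7.8 CPM in Eµ-TCL1 and 13.9, 11.1 and 11.1 CPM in Eµ-MTCP1 mice, a log2 fold change of -0.69 ± 0.40 (edgeR, adjusted p = 0.815).

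**Figure D4:**
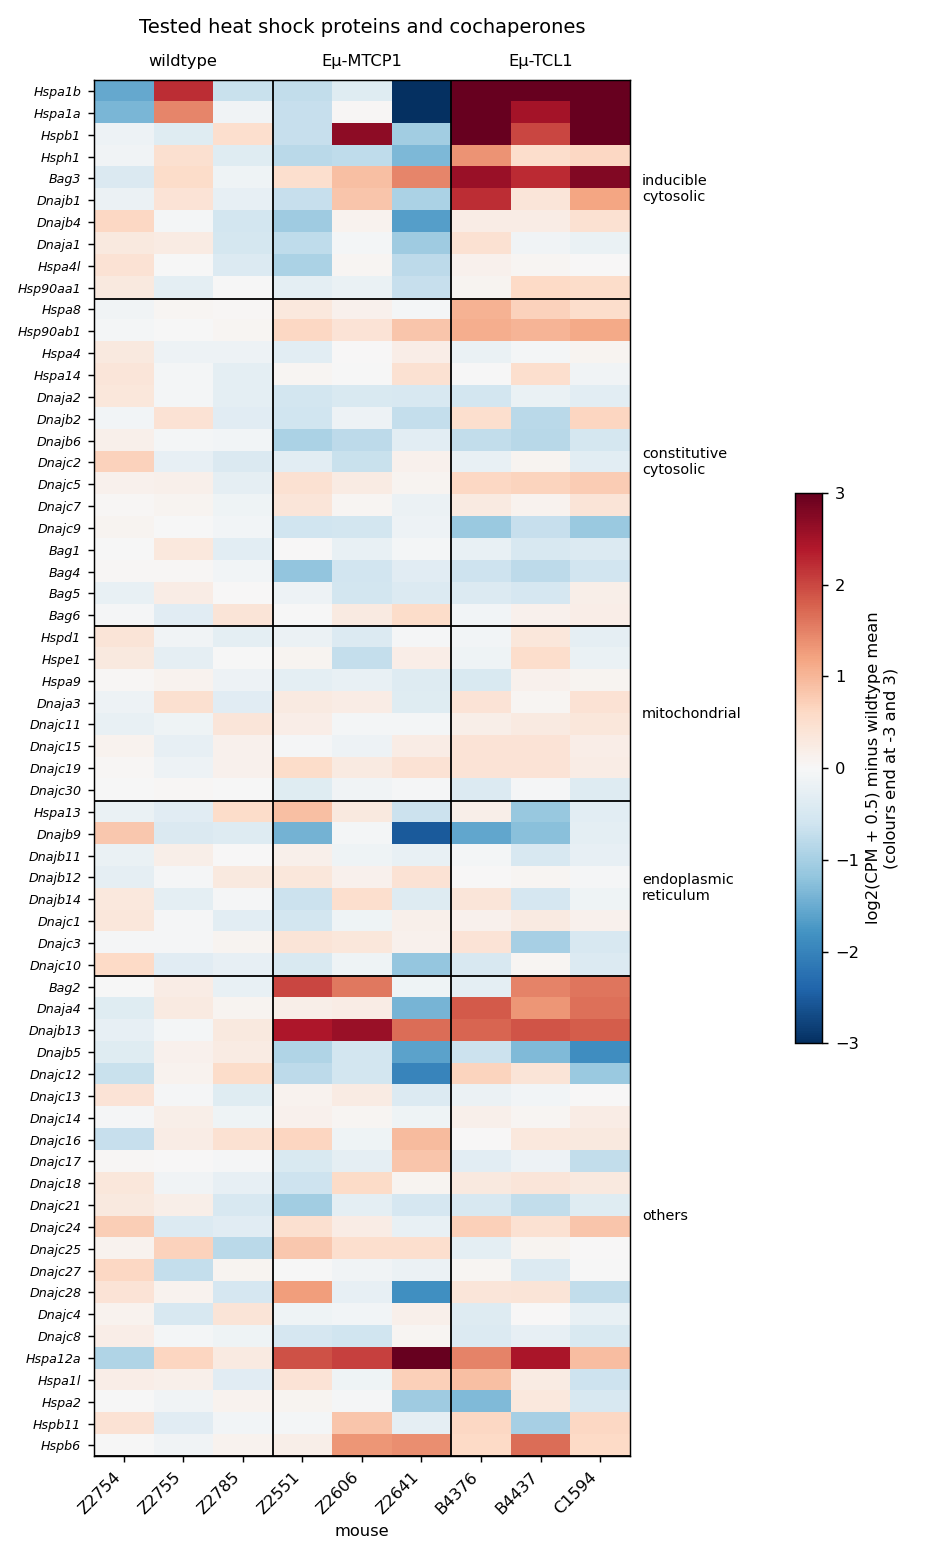
The 63 tested members by role (rows) in the 9 mice (columns), as log2(CPM + 0.5) minus the mean of the wildtype mice, with colours ending at -3 and 3. Colours reach the upper end in Hspa1b, Hspa1a and Hspb1 in Eµ-TCL1 mice and in Hspa12a in Eµ-MTCP1 mouse Z2641, and the lower end in Hspa1a and Hspa1b in Z2641, while the mitochondrial rows stay near the wildtype mean.

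Of the pathway outside the name pattern, Hsf1, the factor that drives inducible members, did not pass in any comparison, at 110 to 129 CPM in Eµ-MTCP1, 97.7 to 136 CPM in Eµ-TCL1 and 82.4 to 109 CPM in wildtype mice (log2 fold changes 0.26 and 0.27; edgeR, adjusted p = 0.416 and 0.41). The Eµ-TCL1 mice overlapped with wildtype, and the Eµ-MTCP1 mice lay just above it. Of 17 tested heat shock factors and HSP70 and HSP90 partners, 1 passed by edgeR, St13 in Eµ-TCL1 against wildtype, where 9.2% of all genes passed. DESeq2 also called Ppid in Eµ-MTCP1 against wildtype, where it called 14.7% of all genes. St13, the HSP70-interacting protein that stabilises the substrate-bound state, rose by 0.94 on the log2 scale, with 85.6, 134 and 150 CPM in Eµ-TCL1 and 64.3, 65.6 and 61.9 CPM in wildtype mice (edgeR, adjusted p = 0.0241). The St13 call held in 10 of 19 alternatives, and was lost without Eµ-TCL1 mouse C1594 or B4437 and without any 1 wildtype mouse (edgeR, adjusted p up to 0.093), as well as with library size alone, with length offsets, on the standard reference and in the deposited gene counts. Among the 8 subunits of the cytosolic chaperonin, 1 passed in each leukemia, where 9.48% (Eµ-MTCP1) and 9.2% (Eµ-TCL1) of all genes passed. Cct5 rose by 0.82 in Eµ-MTCP1 and 0.95 in Eµ-TCL1 (edgeR, adjusted p = 0.0247 and 0.0127), from 550 to 634 CPM in wildtype mice to 954 to 1280 CPM. The Cct5 call held in 13 of 19 alternatives in Eµ-MTCP1, where it was lost with library size alone and without Z2641, Z2551 or any 1 wildtype mouse, and in 17 in Eµ-TCL1, where it was lost without Z2754 or Z2755. The other 7 subunits did not pass by edgeR, while DESeq2 also called Cct3 in Eµ-TCL1 against wildtype, where it called 15.2% of all genes.

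Genes that can react to tissue handling were checked because inducible chaperones can do so as well. Of the 14 early and stress genes on this list, 0 passed by edgeR in any comparison. Over all genes 9.48% and 9.2% passed in Eµ-MTCP1 and Eµ-TCL1 against wildtype, and 0.0448% between the leukemias. In the same order, 3, 6 and 1 of the 14 had an unadjusted p under 0.05 (25%, 25.1% and 6.42% of all genes did). DESeq2 called Junb in both leukemias and Nr4a1 in Eµ-TCL1 against wildtype, where it called 14.7% (Eµ-MTCP1) and 15.2% (Eµ-TCL1) of all genes. Summed over the list, the level was 13700 to 31500 CPM in Eµ-MTCP1, 23500 to 35400 CPM in Eµ-TCL1 and 17800 to 22900 CPM in wildtype mice. The median log2 fold changes of the list were -0.11 in Eµ-MTCP1 and 0.34 in Eµ-TCL1 against wildtype, and 0.39 between the leukemias. In Eµ-TCL1 against wildtype 10 of the 14 were positive. There 5 lay above and 2 below all wildtype mice, as 16.6% and 16.1% of all genes did. Between the leukemias 13 of the 14 were positive, and 0 were without overlap. Jun and Dusp1, at 1930 and 1690 CPM, were highest in mouse B4376, which was also highest in Hspa1a and Hspa1b. Egr1, at 2640 and 2160 CPM, was highest in Z2606 and C1594. Mouse Z2606 had the highest sum of the Eµ-MTCP1 mice (31500 CPM, beside 18900 and 13700 CPM). It was also the highest of its group in 9 of the 10 inducible genes. Among Eµ-TCL1 mice the sum was highest in C1594 (35400 CPM), while B4376 was highest in 6 inducible genes. The lowest sum of that group was in B4437 (23500 CPM), the lowest in 7 inducible genes. In mouse Z2641, the lowest in most inducible genes, Jun was at 344 CPM and Dusp1 at 166 CPM, the lowest of all mice. Their part in the differences of the inducible members was not tested.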

How the data were processed

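Total RNA of splenic B cells from 9 mice was sequenced by the authors (the sources name both SMARTer with Nextera XT and stranded TruSeq kits). The authors made estimated counts and TPM per transcript with Salmon 1.0.0 on a mouse reference with added human sequences, and deposited them with a gene-level count table. The submitters' processing notes name HISAT2 2.0.6, Subread and featureCounts, without saying which made that table or with which strand setting. Log2-like values of 22174 genes were deposited by the authors, and this table gave the gene names from which members were chosen and the levels of the human transgenes. Deposited columns of the authors' fold changes and p-values were not used, and 0 per-sample columns were unmapped. Here, the deposited estimated counts were summed per gene with GENCODE M21 (GRCm38), rounded, scaled by TMM and tested with edgeR 4.0.16 (R 4.3.3; quasi-likelihood F test, all 9 libraries in 1 fit, Benjamini-Hochberg over 11165 genes, threshold 0.05). DESeq2 1.42.0 served as an alternative. The edgeR procedure was tested on simulated data. The alternatives were other scalings, no filter, length offsets, the standard reference, the gene counts, only 6 libraries, the Hspa1a and Hspa1b sum, and leaving out each library. Of 57871 transcripts 442 were not in M21, with at most 0.2909% of reads. Of transcript lengths, 87.3% were multiples of 3, so TPM refers mostly to coding length. Between 0.3256 and 0.4955 CPM correspond to 3 reads. Reads carried no molecular identifiers, so intervals cover counting error only. Each library is 1 mouse, and p-values measure the spread between mice. Members and gene lists were chosen with earlier results of these data known. Named genes are the inducible list, Hspa8, Hsp90ab1, members that passed, the 3 members with the largest change per comparison and direction above a mean of 5 CPM, and, of other genes, Hsf1 and those that passed.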

Additional observations from a re-analysis of the deposited data

Results flagged for a closer look

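In 3 named members, every Eµ-MTCP1 mouse lay below and every Eµ-TCL1 mouse above the wildtype mean of log2 CPM. The share of all tested genes that meet this rule was not counted, so the 3 cannot be set against a background. The members were Hspa1b (log2 fold change of Eµ-TCL1 against Eµ-MTCP1 5.79), Hsph1 (1.85) and Hsp90aa1 (0.81). The difference between the models was tested in the edgeR fit and did not pass in any of the 3 (adjusted p = 0.225, 0.113 and 0.586), while DESeq2 called Hspa1b and Hsph1. The study had singled out Hspa1b in this contrast, so its values are a description. For Hspa1b the wildtype mean rests on mouse Z2755, at 139 CPM against 9.8 and 18.4 CPM in the other wildtype mice.
Without Z2755 the log2 fold change of Hspa1b in Eµ-MTCP1 against wildtype was 0.01.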

How the results depend on the processing

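No paired analysis was possible because the labels give no replicate numbers and tie no mouse of 1 group to a mouse of another. In Eµ-MTCP1 against wildtype, 2 members passed. Of the alternatives, 5 passed with library size alone (10% of all genes), 5 with DESeq2, 5 with DESeq2 and length offsets (14.7% and 14.6% of all genes) and 1 in the deposited gene counts (10%), and 1 to 3 passed when each library was left out, with 1 without wildtype mouse Z2754 or Z2785 (4.59% and 6.88% of all genes, beside 9.48% with all libraries). Under library size alone the median of all genes moved from -0.02 to -0.26 and the calls over all genes from 613 higher and 446 lower to 391 and 730. In Eµ-TCL1 against wildtype that scaling moved them from 566 and 461 to 446 and 593. There 6 members passed, 12 with DESeq2 and 11 with DESeq2 and length offsets (15.2% of all genes in both), and 3 to 9 when libraries were left out, with 3 without mouse C1594 or Z2754 (5.75% and 4.52% of all genes, beside 9.2% with all libraries) and 9 without Z2641 (10.8%). Between the leukemias 0 passed, 2 without the filter on low counts (Hspa1b and Hsph1, where 0.104% of all genes passed), 4 with DESeq2 and 5 with DESeq2 and length offsets (0.654% and 0.931% of all genes), and 0 in every leave-one-out fit. Hspa1a and Hspa1b, which the study had singled out in this contrast, are among the 4, so these counts are a description. The inducible median in Eµ-TCL1 against wildtype ran from 0.68 to 1.36 over these fits. The constitutive medians against wildtype were -0.37 in Eµ-MTCP1 and -0.21 in Eµ-TCL1 with library size alone, and ran from -0.26 to 0.08 and from -0.15 to 0.08 when libraries were left out, both at 0.08 without mouse Z2754. By deposited gene counts, Hspa1a plus Hspa1b was 20.7% of Hspa8 in Eµ-TCL1, and Hsp90aa1 was 19.2%, 23.7% and 39.5% of Hsp90ab1 in Eµ-MTCP1, Eµ-TCL1 and wildtype mice. The cause of these moves was not tested. No called value of a named gene changed sign under any alternative run. Members such as Bag3 rested on 21 to 200 reads per library, which limits their precision.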

Other observations

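Hspa12b, an HSP70 relative known from endothelium, was not tested and was read in few mice: 48 reads in Eµ-MTCP1 mouse Z2606 and 105 in Eµ-TCL1 mouse C1594, 2 in Z2641, 3 in B4376 and 0 in the other 5, where a count of 0 allows up to 3 reads. This gene was chosen after its values were seen. The endothelial genes Cdh5 and Kdr were at 1.56 and 0 CPM in Z2606 and at 0.14 and 0 CPM in C1594, and Cdh5 ran from 0 to 2.13 CPM over all mice. Mice Z2606 and C1594 were also those in which the heavy chain segment Ighv12-3 took 95.8% and 98.1% of the reads on heavy chain variable segments, where it took at most 9.22% in the others. They had the highest Hspb1 of their groups, at 21.7 and 331 CPM.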
